A study of Homo sapiens with 12 samples.

Results

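Chaperone and heat shock genes were examined after depletion of NRF2 in 3 lung cancer cell lines. The set held 79 protein-coding genes out of 57815 genes in the deposited tables, and its members were taken by gene name: 14 HSPA (Hsp70) genes, 6 HSPB (small heat shock protein) genes, 3 HSP90 genes, 4 DNAJA, 12 DNAJB and 28 DNAJC (J-domain or Hsp40) genes, 9 CCT genes including TCP1, and HSPD1, HSPE1 and HSPH1. Not taken were 129 pseudogenes and 21 other genes whose names begin alike, among them antisense RNAs, readthrough genes such as HSPE1-MOB4 and unrelated genes such as TCP11. A549 and H2023, both lung adenocarcinoma, and H460, a large cell carcinoma, are established lines that the labels give as KEAP1 mutation positive, the controls included. KEAP1 is the adaptor that directs NRF2 to degradation, and NRF2, encoded by NFE2L2, is a transcription factor of antioxidant genes that stays active when KEAP1 is lost. Transfection was with control siRNA or with NRF2 siRNA, and RNA was taken 48 h later, with 2 libraries in each of 6 groups. The control libraries were biological duplicates, while the pair of NRF2 siRNA libraries of a line came from different siRNAs, 28 and 30, so their spread holds the difference between siRNAs as well. A549 libraries were made after rRNA depletion and those of H2023 and H460 after polyA selection, and A549 also grew in high glucose rather than low glucose DMEM, so protocol, medium and cell line cannot be told apart for A549.

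Chaperones bind proteins that are not folded and help them to fold, assemble, cross membranes or reach degradation. Hsp70 proteins do so in cycles of ATP hydrolysis that are started by J-domain proteins and reset by nucleotide exchange factors, HSP90 dimers act later on kinases, receptors and other clients, and the CCT (TRiC) ring encloses actin, tubulin and other substrates. Compartments have their own sets: HSPA5 (BiP), HSP90B1 (GRP94), DNAJB11 and DNAJC3 in the endoplasmic reticulum (ER), and HSPA9, HSPD1 and HSPE1 in mitochondria. The cytosolic genes are classical targets of heat shock factor HSF1, and the ER genes of the unfolded protein response.

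The members' promoters were searched for short motifs, and RefSeq windows (GRCh38.p14, 250 bases before to 50 after the start site) were held for 71 of the 79 members. The window of HSPE1 (chr2:197500129-197500428, plus strand) is shown since most of it is also the promoter window of HSPD1: the partner genes of the mitochondrial folding chamber lie head to head, and the capitals mark the 204 bases that both windows cover.
HSPE1: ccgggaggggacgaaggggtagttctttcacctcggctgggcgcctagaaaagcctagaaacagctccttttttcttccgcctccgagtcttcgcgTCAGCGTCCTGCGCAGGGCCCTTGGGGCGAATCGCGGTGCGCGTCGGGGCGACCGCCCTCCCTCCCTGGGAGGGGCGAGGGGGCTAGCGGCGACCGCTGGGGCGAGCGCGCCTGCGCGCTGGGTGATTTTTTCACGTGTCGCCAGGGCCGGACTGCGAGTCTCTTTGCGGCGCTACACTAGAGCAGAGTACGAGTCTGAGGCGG
HSPA1A (chr6:31815293-31815592, plus strand) and HSPA1B (chr6:31827488-31827787, plus strand) are shown as the promoter windows of a near-identical pair of genes. Most of each window lies before the start site, so the windows do not show how reads of the pair can be assigned. With the windows lined up, 277 of 299 bases (92.6%) were the same, and the capitals mark the longest run that both share, of 49 bases.
HSPA1A: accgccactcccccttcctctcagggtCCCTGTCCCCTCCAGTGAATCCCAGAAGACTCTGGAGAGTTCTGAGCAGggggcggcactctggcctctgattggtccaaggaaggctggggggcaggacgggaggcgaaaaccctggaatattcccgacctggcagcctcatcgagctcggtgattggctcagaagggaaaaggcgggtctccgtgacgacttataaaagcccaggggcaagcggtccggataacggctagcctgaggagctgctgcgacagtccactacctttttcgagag
HSPA1B: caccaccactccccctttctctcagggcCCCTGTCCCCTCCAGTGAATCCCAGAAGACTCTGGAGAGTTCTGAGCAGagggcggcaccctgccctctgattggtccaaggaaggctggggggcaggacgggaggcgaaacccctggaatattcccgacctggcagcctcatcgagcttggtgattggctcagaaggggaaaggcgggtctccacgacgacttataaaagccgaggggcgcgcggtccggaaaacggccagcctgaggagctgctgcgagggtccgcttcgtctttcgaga
HSPA8 (chr11:123062087-123062386, minus strand), the most abundant member in each line, is shown for its heat shock elements, which the capitals mark. The letters searched were GAANNTTCNNGAA, on both strands.
HSPA8: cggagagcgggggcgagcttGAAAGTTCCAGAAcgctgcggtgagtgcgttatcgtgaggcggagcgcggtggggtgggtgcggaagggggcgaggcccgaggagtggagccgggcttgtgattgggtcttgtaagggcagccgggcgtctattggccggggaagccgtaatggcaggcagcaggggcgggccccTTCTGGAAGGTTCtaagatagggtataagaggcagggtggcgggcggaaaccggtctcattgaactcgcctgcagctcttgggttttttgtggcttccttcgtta
HSPA5 (chr9:125241294-125241593, minus strand) and HSP90B1 (chr12:103930160-103930459, plus strand) are shown for the ER stress element, searched as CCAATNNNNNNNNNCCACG on both strands and marked in capitals.
HSPA5: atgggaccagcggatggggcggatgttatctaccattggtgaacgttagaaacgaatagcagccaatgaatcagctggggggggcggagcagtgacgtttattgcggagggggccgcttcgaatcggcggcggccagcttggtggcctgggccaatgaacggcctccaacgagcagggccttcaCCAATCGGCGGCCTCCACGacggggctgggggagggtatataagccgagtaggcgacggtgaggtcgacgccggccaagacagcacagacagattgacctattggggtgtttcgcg
HSP90B1: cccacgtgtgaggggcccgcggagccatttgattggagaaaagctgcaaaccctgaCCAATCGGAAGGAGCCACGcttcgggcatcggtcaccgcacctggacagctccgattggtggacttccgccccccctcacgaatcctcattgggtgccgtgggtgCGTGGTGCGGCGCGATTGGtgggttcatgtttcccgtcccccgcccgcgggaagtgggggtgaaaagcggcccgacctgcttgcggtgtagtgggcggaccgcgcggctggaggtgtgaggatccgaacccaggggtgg
The heat shock element was found in 4 of the 71 member windows (HSPA6, HSPA8, DNAJA1 and DNAJB6, 5.63%) and in 0.487% of all 27305 windows. The ER stress element was found in HSPA5 and HSP90B1 (2.82% of member windows) and in 0.0806% of all windows. The core of the antioxidant response element that NRF2 binds, searched as TGACNNNGC on both strands, was found in 11 member windows (15.5%) and in 13.6% of all windows. In the members no match of one motif overlapped a match of another. A match is a description of the letters and not a site or a cause, and the absence of a match says only that these letters are not in the window.

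NFE2L2 was examined first as the check of the labels. It was at 38.2 and 30.9 FPKM in the A549 control libraries and 5.31 and 7.84 FPKM with NRF2 siRNA, at 120 and 118.5 against 7.74 and 6.80 FPKM in H2023, and at 144 and 99.5 against 6.54 and 12.2 FPKM in H460 (FPKM, fragments scaled to the length of the transcript and to the mapped fragments of the library). All 6 knockdown libraries were below all controls of their line, and NFE2L2 passed the test in each (adjusted p = 0.0178, 0.00529 and 0.0111, limma on log2(FPKM + 1), Benjamini-Hochberg over all genes tested). KRT8 and KRT18, keratins of epithelial cells, were above 290 FPKM in every library, EPCAM and CDH1 were at 1.19 FPKM or less in H460, the leukocyte gene PTPRC and the endothelial gene CDH5 were at most 0.470 FPKM in any library, and the macrophage gene CD68 was between 14.0 and 57.7 FPKM. Of 5 epithelial genes tested on average over the lines, 3 were higher with NRF2 siRNA, KRT8, KRT18 and KRT7 (0.78, 0.60 and 0.51 on the log2 scale, adjusted p = 0.00638, 0.00556 and 0.0134), and in H2023 CDH1 was at 12.6 and 8.05 against 65.0 and 58.3 FPKM (adjusted p = 0.028). COL1A1, a fibroblast collagen, was between 0.453 and 7.61 FPKM and passed as higher in H460 (1.81 and 2.06 against 5.94 and 5.81 FPKM, adjusted p = 0.0329), and the part of these genes in the results was not tested. Transcripts of the mitochondrial genome made up between 0.892% and 1.56% of the summed FPKM of the A549 libraries, 11.97% and 18.1% in H2023 controls against 17.4% and 22.8% with NRF2 siRNA, and 8.56% and 13.1% in H460 controls against 20.8% and 26.0% with NRF2 siRNA.

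HSPA8, the constitutive Hsp70 of the cytosol, was the most abundant member in the control libraries of each line, at 1742 ± 73.5 FPKM in A549, 1320 ± 160 FPKM in H2023 and 2204 ± 613 FPKM in H460 (SD, n = 2 each). In A549 it was followed by HSP90AB1 (817 ± 30.4 FPKM), the constitutive cytosolic HSP90, and by the mitochondrial chaperonin HSPD1 (600 ± 51.9 FPKM). In H2023 HSP90AB1 came second (663 ± 17.6 FPKM), and HSPA9, the mitochondrial Hsp70, and CCT5 were next at 477 ± 28.3 and 476 ± 5.21 FPKM, a gap smaller than their spread. In H460 HSPD1 (1766 ± 517 FPKM), HSPA9 (1402 ± 352 FPKM) and HSP90AB1 (1293 ± 115 FPKM) followed HSPA8, with control libraries that lay far apart for HSPD1 (2132 and 1400 FPKM) and HSPA9 (1651 and 1153 FPKM). H460 controls gave 13910 and 15030 FPKM over all members, against 8185 and 8368 FPKM in the H2023 controls made by the same protocol. In all, 61 members were at 1 FPKM or more in all 12 libraries and 26 passed 100 FPKM in at least one. HSPB2, HSPB3, HSPB7, DNAJB7, DNAJB8, DNAJC5B, DNAJC5G and CCT6B stayed under 1 FPKM in all libraries and were not tested.

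The first comparison asked which chaperone genes responded to NRF2 siRNA within a line. In H460, 11 of 66 members tested passed the test as lower and 2 as higher, the lower genes encoding chaperones and J-domain proteins of the cytosol and of mitochondria, and the median log2 fold change of the members was -0.49 against -0.01 for all genes tested. Of all genes tested in H460, 6.86% were called lower and 7.12% higher. In A549 and H2023 no member passed the test in either direction (0 of 67 and 0 of 66, limma), with 10 members in each at an unadjusted p under 0.05. That was 14.9% of members and 13.3% of all genes in A549, and 15.2% and 16.9% in H2023. The members' medians were -0.05 in A549 and -0.06 in H2023, against 0.02 for all genes in both, and in H2023 they were 0.03 for members and 0.11 for all genes when transcripts of the mitochondrial genome were taken out before scaling. Few genes of any kind were called in these lines, at 0.554% lower and 0.122% higher in A549 and 0.583% and 0.327% in H2023. Every fold change given is a difference of log2(FPKM + 1), so for genes of low level it is smaller than the ratio of their FPKM. In bulk RNA, less RNA per cell and fewer cells of a kind cannot be told apart.

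**Figure D1:**
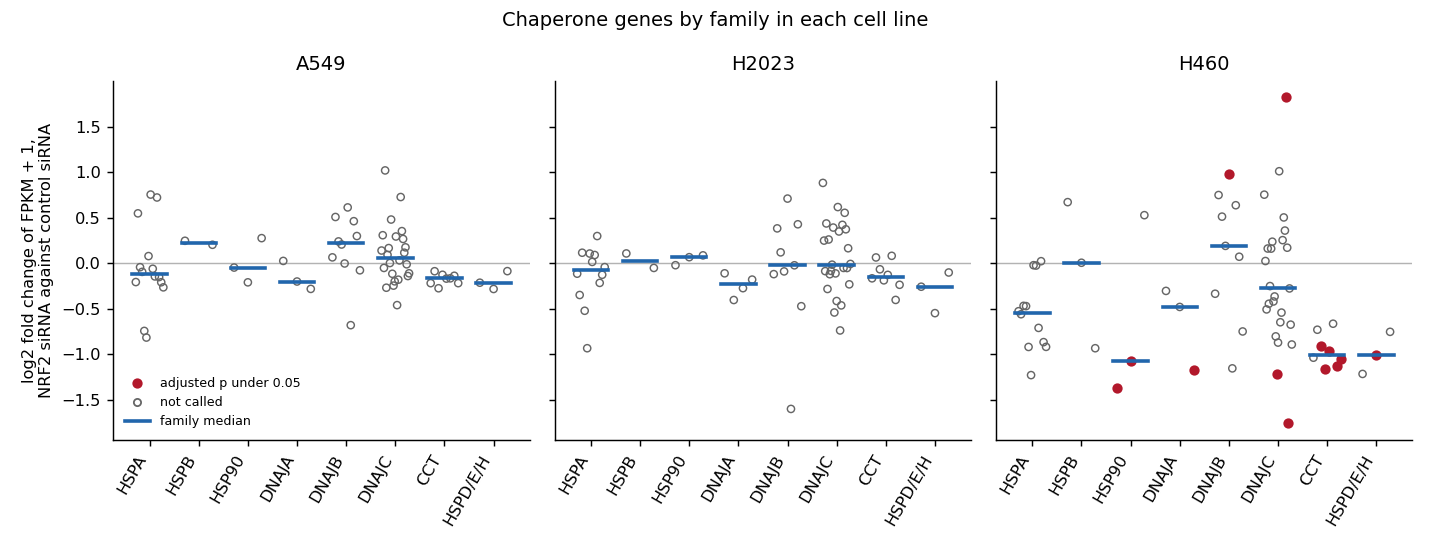
The log2 fold change of FPKM + 1 (y axis, NRF2 siRNA against control siRNA) is plotted for each tested member by family (x axis) in A549, H2023 and H460, with filled points for members at an adjusted p under 0.05 and bars for family medians. In H460 the CCT family lay at a median of -1.001 and HSP90 at -1.07, while no member was called in A549 or H2023.

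The HSP90 genes and the CCT ring made up most of the calls in H460. HSP90AA1, the stress-inducible cytosolic HSP90, was at 1044 and 904 FPKM in the H460 control libraries and at 445 and 316 FPKM with siRNA 28 and 30 (-1.37 ± 0.28 on the log2 scale, SE, adjusted p = 0.0314). Both knockdown libraries lay below both controls. In A549 the same gene was at 257 and 333 FPKM against 291 and 275 FPKM, and in H2023 at 444 and 459 against 421 and 470 FPKM, so the groups overlapped in both lines. HSP90AB1 was at 1374 and 1212 FPKM in H460 controls and 672 and 559 FPKM with NRF2 siRNA (-1.07 ± 0.27, adjusted p = 0.0476). With transcripts of the mitochondrial genome taken out before scaling, and under median-ratio scaling, HSP90AA1 stayed called and HSP90AB1 did not. The ER paralog HSP90B1 was at 539 and 378 FPKM against 572 and 741 FPKM and did not pass (0.53 ± 0.29, adjusted p = 0.26). The cytosolic and the ER member of the family thus had values of opposite sign in H460.

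All 8 tested CCT genes, which encode the subunits of the TRiC ring, were below 0 in H460, with a family median of -1.001, and 5 passed the test. CCT5 was at 681 and 630 FPKM in controls and 290 and 293 FPKM with NRF2 siRNA (-1.17 ± 0.23, adjusted p = 0.0296). CCT8 (176 and 164 against 81.6 and 72.7 FPKM), TCP1 (297 and 282 against 157 and 123 FPKM), CCT6A (80.5 and 71.2 against 44.7 and 32.7 FPKM) and CCT4 (274 and 239 against 152 and 122 FPKM) were called too, at -1.13, -1.05, -0.97 and -0.91. CCT5 and CCT8 stayed called with transcripts of the mitochondrial genome taken out before scaling, and CCT5, CCT8 and TCP1 under median-ratio scaling. CCT2 (-1.04 ± 0.31), CCT3 (-0.73 ± 0.23) and CCT7 (-0.66 ± 0.24) did not pass. In A549 all 8 were also below 0, but between -0.09 and -0.27, and in H2023 6 of 8 were, between -0.07 and -0.40 for those 6. The ring subunits thus kept their sign in A549, with values nearer 0 than in H460.

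Of 7 mitochondrial members tested in H460, a grouping made after the values were seen, HSPE1 and DNAJA3 passed as lower and none as higher. HSPE1, the lid of the mitochondrial folding chamber, was at 866 and 886 FPKM in controls and 473 and 403 FPKM with NRF2 siRNA (-1.003 ± 0.25, adjusted p = 0.0456). Its call was lost without mitochondrial-genome transcripts and under median-ratio scaling, while that of DNAJA3 was kept under both. HSPD1, the chamber itself and its head-to-head neighbour in the promoter shown above, was at 2132 and 1400 FPKM against 897 and 617 FPKM, a larger difference that missed the threshold (-1.21 ± 0.35, adjusted p = 0.0647), with controls that lay far apart. DNAJA3, the mitochondrial J-domain protein that serves HSPA9, fell from 127 and 96.2 FPKM to 54.9 and 42.5 FPKM (-1.17 ± 0.25, adjusted p = 0.0337). HSPA9 was at 1651 and 1153 against 733 and 727 FPKM (-0.92 ± 0.30, adjusted p = 0.0847). Both controls of these 4 genes lay above both knockdown libraries. DNAJC15, a J-domain protein of the mitochondrial import motor, was at 10.1 and 12.7 against 9.81 and 16.6 FPKM, and its groups overlapped. DNAJC30, a mitochondrial J-domain protein outside the group, was at 6.25 and 8.13 against 9.15 and 9.72 FPKM. Both of its knockdown libraries lay above both controls, and it did not pass.

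Among the DNAJC and DNAJB genes the H460 calls went both ways. DNAJC4, a membrane J-domain protein, was at 15.9 and 11.4 FPKM in H460 controls and 46.9 and 53.6 FPKM with NRF2 siRNA (1.82 ± 0.25, adjusted p = 0.0174), the largest rise of the set. DNAJB2, a J-domain protein that binds ubiquitylated clients, was at 10.2 and 9.25 against 22.7 and 18.0 FPKM (0.98 ± 0.25, adjusted p = 0.0488). DNAJC6 (auxilin), which uncoats clathrin vesicles with HSPA8, was at 23.1 and 25.2 FPKM against 9.37 and 4.35 FPKM (-1.75 ± 0.36, adjusted p = 0.0311). DNAJC6 overlapped between groups in H2023, at 7.07 and 7.36 against 8.07 and 5.93 FPKM. Its log2 fold change was -0.54 ± 0.16 on average over the 3 lines and 0.06 over A549 and H2023 alone. DNAJC2, a J-domain protein of the ribosome-associated chaperone complex, was at 58.6 and 44.5 against 22.7 and 20.4 FPKM (-1.21 ± 0.24, adjusted p = 0.0299). The families of the called genes are thus mixed in H460, with the J-domain genes holding both the highest and the lowest value.

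The H460 calls, unlike the median of the members, depended on having both control libraries. Without control library 0, and also without control library 1, 0 members were called in limma, with 17 and 14 members (25.8% and 21.2%) at an unadjusted p under 0.05, against 17.3% and 19.7% of all genes, and the members' median was -0.49 and -0.53. The calls over all genes went the same way, from 922 lower and 957 higher to 0 in either direction without control library 0, and to 4 lower and 1 higher without control library 1. Without the library of siRNA 28, on the other hand, 21 members were lower and 3 higher, and 1748 and 1380 of 12804 genes in all. The share of mitochondrial-genome transcripts was higher with NRF2 siRNA in H460 (given above), and FPKM is relative to all transcripts. With these transcripts taken out before scaling the median of all genes moved to 0.13, that of the members to -0.35, and the member calls to 6 lower and 3 higher, while the lower share of all calls went from 49.1% to 33.2%. Abundant genes as a class also lay lower in H460: among genes with a mean above 100 FPKM the median was -0.19 over all genes and -0.91 over the 19 members, of which 7 were called lower (36.8%, against 14.9% of all such genes).

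The second comparison took the effect of NRF2 siRNA averaged over the 3 lines in 1 fit. Of 63 members tested in every line, 25 were lower and 7 higher, against 14.5% of all genes lower and 15.2% higher, and the members' median was -0.25 against -0.01. Without mitochondrial-genome transcripts 17 members were lower and 7 higher, and the lower share of all calls went from 48.7% to 38.7%. Each line has equal weight in these values. In simulated data this fit called more unchanged genes than its threshold allows, as did the fits within lines. Without A549 control library 0 the count of lower members was 15, and without the A549 library of siRNA 28 it was 16. The lowered genes comprised 7 of 8 CCT genes, HSP90AA1 and HSP90AB1, HSPA1A, HSPA1B, HSPA8 and HSPA9, DNAJA2 and DNAJA3, HSPD1 and HSPE1, DNAJB4 and 7 DNAJC genes (DNAJC2, DNAJC6, DNAJC8, DNAJC13, DNAJC19, DNAJC21 and DNAJC25). The raised genes were DNAJC4, DNAJB2, DNAJC22, DNAJC1, DNAJC3, DNAJB11 and DNAJC12.

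Few of the lowered genes passed without H460. With H460 left out, 1 of 64 members was lower (DNAJB4) and 4 were higher (DNAJB11, DNAJB2, DNAJC1 and DNAJC3), against 3.40% of all genes lower and 4.69% higher, and 20 members (31.2%) were at an unadjusted p under 0.05, against 24.6% of all genes. The members' median was then -0.04 against 0.02 for all genes. The 8 CCT genes were all still below 0, at a median of -0.16, and the 3 HSP90 genes had a median of -0.03. By contrast 8 members that reside in the ER, a grouping made after the values were seen, had a median of 0.25 with H460 and 0.27 without it. DNAJB11, DNAJC1 and DNAJC3 of this group were called in both fits. DNAJC25, an ER membrane J-domain protein that was not put in the group, was called lower with H460 (-0.49 ± 0.14, adjusted p = 0.0234). Without H460 it averaged -0.46 ± 0.14 and did not pass (adjusted p = 0.0875). The 6 tested mitochondrial members, grouped the same way, went from -0.52 to -0.26, with 5 called lower at first and 0 called without H460 in limma, where 4 were at an unadjusted p under 0.05. DNAJC30, a mitochondrial J-domain protein that was not put in that group, averaged 0.22 ± 0.11 and did not pass (adjusted p = 0.167).

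**Figure D2:**
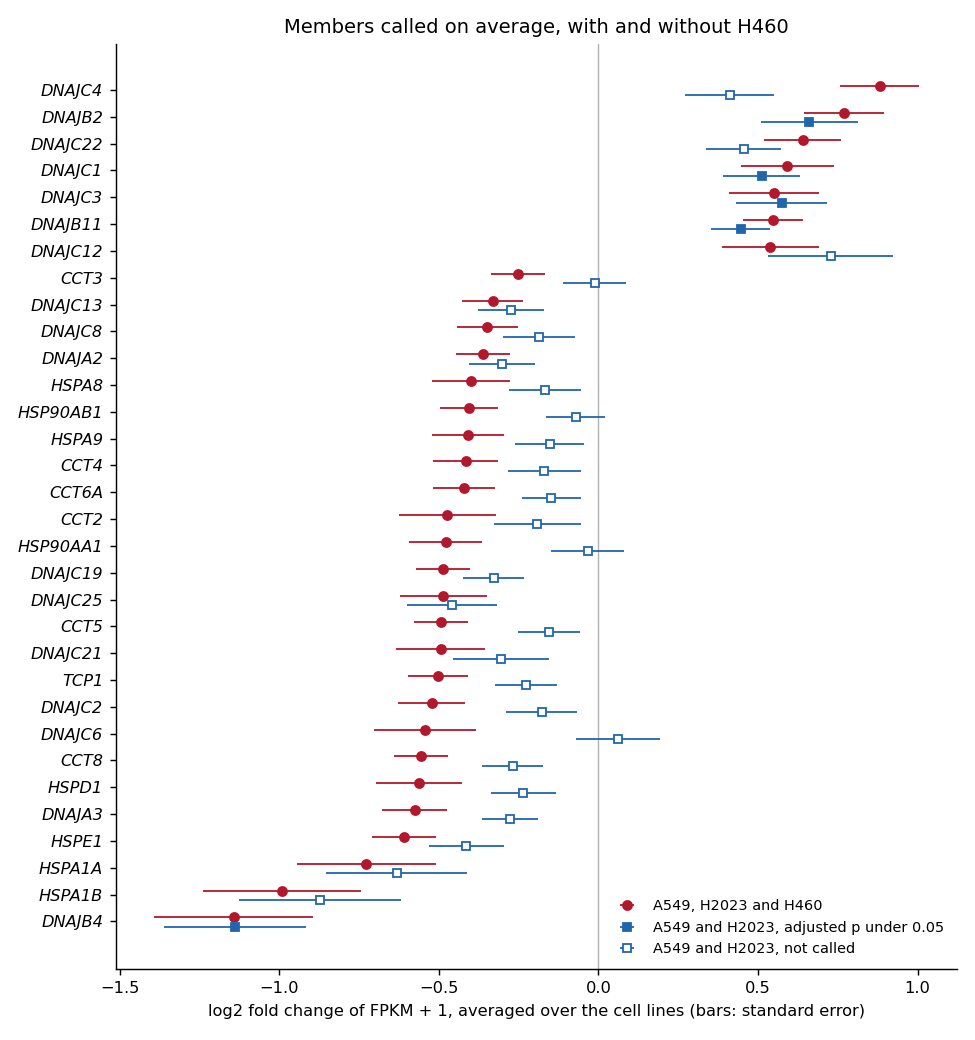
The 32 members called on average are plotted with their log2 fold change of FPKM + 1 (x axis, bars for the standard error) over the 3 lines and over A549 and H2023 alone, filled squares marking an adjusted p under 0.05 in the latter. DNAJB4 stayed at -1.14 in both fits, whereas HSP90AA1 moved from -0.48 to -0.03.

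DNAJB4, a cytosolic J-domain partner of Hsp70, had the largest average fall of the set. It was at 13.9 and 10.7 FPKM in A549 controls against 5.86 and 8.98 FPKM with siRNA 28 and 30, at 80.0 and 86.1 against 19.0 and 37.6 FPKM in H2023, and at 28.1 and 41.6 against 8.91 and 24.3 FPKM in H460. Both knockdown libraries lay below both controls in each line, and siRNA 28 gave the lower value each time. The average log2 fold change was -1.14 ± 0.25 (adjusted p = 0.00746), and -1.14 ± 0.22 without H460 (adjusted p = 0.0223). DNAJB4 lies on chromosome 1, 78444859 to 78483648 (GRCh37, plus strand).

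The heat-inducible HSPA1A and HSPA1B, which encode the same Hsp70 protein, fell on average too. HSPA1B was at 32.1 and 47.6 against 16.8 and 28.2 FPKM in A549, at 19.7 and 29.6 against 8.97 and 16.5 FPKM in H2023, and at 16.2 and 40.1 against 9.67 and 11.1 FPKM in H460. All 6 knockdown libraries were below the controls of their line, though the controls themselves differed widely in H460. HSPA1A was at 63.6 and 69.3 against 32.1 and 48.0 FPKM in A549, at 51.6 and 74.6 against 31.7 and 58.0 FPKM in H2023, and at 36.4 and 80.2 against 27.1 and 29.2 FPKM in H460, and only in H2023 did its groups overlap. HSPA1A and HSPA1B were higher in the library numbered 1 (control library 1, siRNA 30) than in that numbered 0 in both arms of every line. The average was -0.99 ± 0.25 for HSPA1B (adjusted p = 0.0139) and -0.73 ± 0.22 for HSPA1A (adjusted p = 0.0302), and neither passed without H460 (adjusted p = 0.0744 and 0.123). Reads of these near-identical genes were shared by estimate, so how the fall divides between the pair is uncertain. HSPA8 (-0.40 ± 0.12, adjusted p = 0.0328) and HSPA9 (-0.41 ± 0.11, adjusted p = 0.022) were called as well, HSPA8 in 10 and HSPA9 in 12 of 22 alternatives and neither without H460. Without mitochondrial-genome transcripts HSPA1B alone of the HSPA genes was called. HSF1, the factor that induces HSPA1A and HSPA1B on heat, had an average of -0.14 ± 0.08 (adjusted p = 0.215), and of the 4 tested genes of the list of heat shock factors and their binding protein 0 passed in limma, with 0 at an unadjusted p under 0.05.

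**Figure D3:**
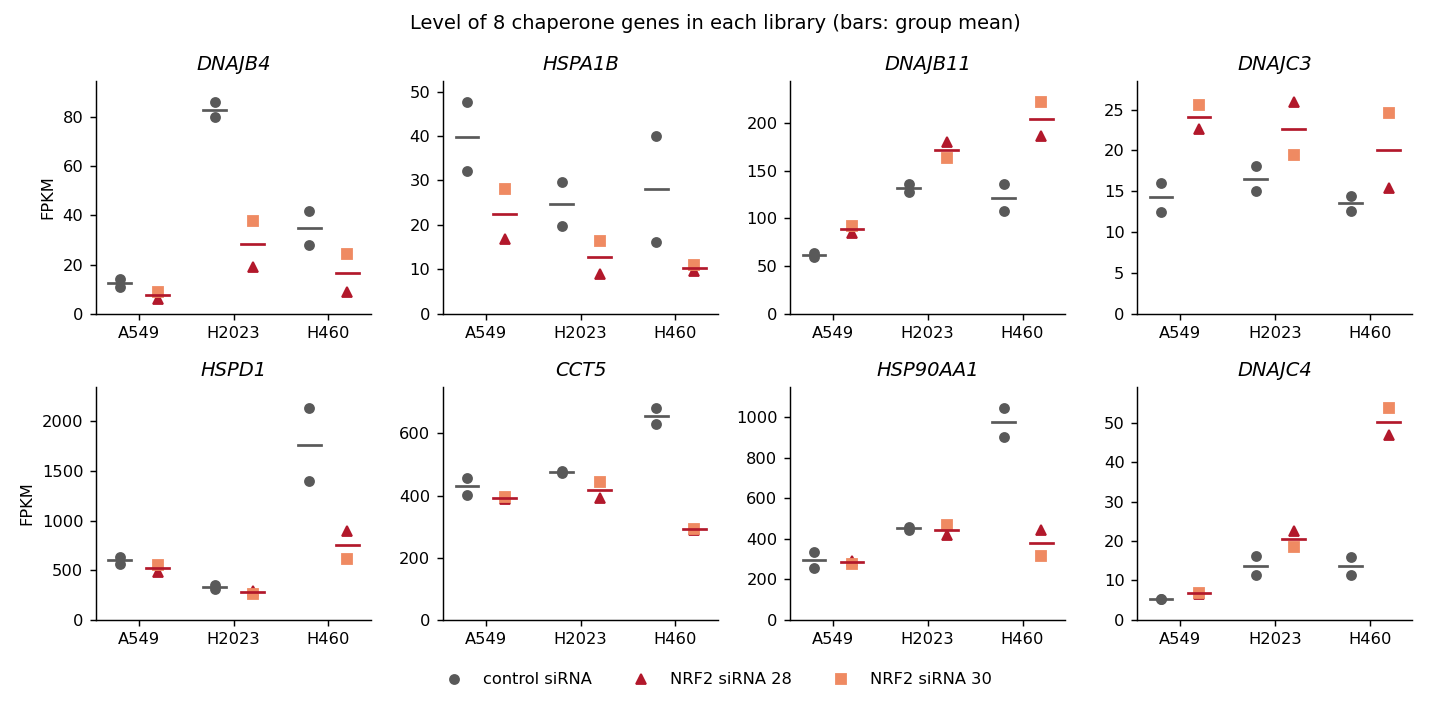
FPKM (y axis, from 0) of 8 members is plotted in each of the 12 libraries by cell line (x axis), with grey circles for control siRNA, triangles for siRNA 28, squares for siRNA 30 and bars for group means. DNAJB4 and HSPA1B lay below their controls and DNAJB11 and DNAJC3 above them in every line, while CCT5, HSPD1, HSP90AA1 and DNAJC4 had their widest gap between groups in H460.

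DNAJB11, DNAJC1 and DNAJC3, J-domain proteins of the ER, rose on average. DNAJB11 (ERdj3), a soluble cofactor of HSPA5, was at 63.9 and 59.9 FPKM in A549 controls against 84.9 and 92.1 FPKM with NRF2 siRNA, at 136 and 127 against 180.5 and 164 FPKM in H2023, and at 136 and 108 against 187 and 222 FPKM in H460. The groups did not overlap in any line, and the average was 0.55 ± 0.09 (adjusted p = 0.00244). DNAJC3 (p58IPK), an ER cofactor of HSPA5 that was first known as an inhibitor of the kinase PKR, was at 16.1 and 12.4 against 22.7 and 25.5 FPKM in A549, at 18.1 and 15.0 against 25.9 and 19.4 FPKM in H2023, and at 14.4 and 12.6 against 15.4 and 24.6 FPKM in H460 (average 0.55 ± 0.14, adjusted p = 0.015). DNAJC1, an ER membrane J-domain protein, was at 32.3 and 24.0 against 30.1 and 31.5 FPKM in A549, where its groups overlapped, at 56.5 and 49.7 against 93.7 and 103 FPKM in H2023, and at 29.6 and 18.2 against 33.1 and 47.9 FPKM in H460 (average 0.59 ± 0.14, adjusted p = 0.0127). DNAJC10 (ERdj5), a disulfide reductase, averaged 0.19 ± 0.12 (adjusted p = 0.265), and DNAJB9, whose siRNAs lay apart, averaged -0.43 ± 0.40 (adjusted p = 0.447). HSPA13, which is in the ER group above, was at 29.1 and 28.5 against 21.5 and 23.3 FPKM in H2023, and its groups overlapped in A549 and H460. DNAJB12 and DNAJB14, of the ER membrane and not in the ER group above, averaged 0.29 ± 0.12 and 0.03 ± 0.14 and did not pass (adjusted p = 0.0821 and 0.881). DNAJC25, also of the ER membrane and outside that group, was called lower (-0.49 ± 0.14, adjusted p = 0.0234). The share and direction of the ER genes called thus depend on which are counted. HSPA5 itself, the Hsp70 that these cofactors serve, had no single direction: it was at 19.6 and 25.4 against 33.1 and 42.4 FPKM in A549, at 332 and 330 against 302 and 269 FPKM in H2023, and at 713 and 532 against 407 and 961 FPKM in H460, where the values of the siRNAs fell on both sides of the controls (average 0.18 ± 0.19, adjusted p = 0.52). HSP90B1 averaged 0.30 ± 0.13 (adjusted p = 0.105), and so of the 2 genes whose windows hold the ER stress element neither passed. HSP90B1 was called under median-ratio scaling alone among the scalings tried (21 members lower and 9 higher in that fit).

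DNAJB2 and DNAJC4 rose on average beside the ER genes. DNAJB2 was at 9.77 and 8.45 against 13.6 and 15.3 FPKM in A549 and at 15.1 and 14.8 against 20.1 and 31.2 FPKM in H2023 (average 0.77 ± 0.13, adjusted p = 0.00185). DNAJC4 was at 5.37 and 5.39 against 6.49 and 6.87 FPKM in A549 and at 11.3 and 16.1 against 22.4 and 18.5 FPKM in H2023 (average 0.88 ± 0.12, adjusted p = 0.000924). All knockdown libraries of both genes lay above their controls, but without H460 DNAJC4 did not pass (0.41 ± 0.14, adjusted p = 0.115). DNAJC22 averaged 0.64 ± 0.12 (adjusted p = 0.0037) and DNAJC12, a cofactor of the aromatic amino acid hydroxylases, 0.54 ± 0.15 (adjusted p = 0.0226). DNAJC22 was at a low level in H460, 0.824 and 1.53 against 2.97 and 3.72 FPKM. Without H460 it did not pass (0.455 ± 0.118, adjusted p = 0.0542). DNAJC12 was at 6.39 and 4.32 against 15.0 and 9.08 FPKM in A549, at 1.38 and 1.158 against 2.5 and 1.68 FPKM in H2023, and at 13.85 and 11.5 against 13.91 and 14.6 FPKM in H460, where its groups nearly met, and it was called in 15 of 22 alternatives.

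HSPE1 and HSPD1, the mitochondrial J-domain genes DNAJC19 and DNAJA3, and 7 of the 8 CCT genes fell on average. HSPE1 was at 258 and 236 against 192 and 215 FPKM in A549 and at 277 and 229 against 154 and 192 FPKM in H2023 (average -0.61 ± 0.10, adjusted p = 0.00188). HSPD1 was at 637 and 564 against 486 and 549.2 FPKM in A549 and at 346 and 316 against 289 and 265 FPKM in H2023 (average -0.56 ± 0.14, adjusted p = 0.0118). Both knockdown libraries of both genes were below both controls in all 3 lines. HSPD1 and HSPE1 overlap on opposite strands in the GRCh37 annotation (chromosome 2, 198351308 to 198381461 and 198364864 to 198368173), and HSPE1 has 26 annotated pseudogenes whose summed level reached 5.57% of its own. Whether strand was used when these levels were estimated is not given in the sources used here, so both levels are uncertain to that extent. DNAJC19, which sits at the inner membrane with the import motor, averaged -0.49 ± 0.09 (adjusted p = 0.0027) and DNAJA3 -0.58 ± 0.10 (adjusted p = 0.00265). CCT8 (-0.56 ± 0.08, adjusted p = 0.00128), TCP1 (-0.50 ± 0.09, adjusted p = 0.0034) and CCT5 (-0.49 ± 0.08, adjusted p = 0.00242) had the largest averages in the ring. CCT3 and CCT7 had the same average, -0.25 ± 0.09, on either side of the threshold (adjusted p = 0.0474 and 0.0501), and CCT3 was called in 5 of 22 alternatives. Under either other scaling (without mitochondrial-genome transcripts, or by median ratio) 5 of the 8 CCT genes were lower.

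HSPH1, HSPA4 and the cytosolic DNAJA1, DNAJB1 and DNAJA2, named after their values were seen, included 1 call, for DNAJA2. HSPH1 (Hsp110), a nucleotide exchange factor of Hsp70, was at 58.0 and 53.9 against 56.8 and 48.8 FPKM in A549, at 4.08 and 7.84 against 4.26 and 6.42 FPKM in H2023, and at 76.9 and 87.9 against 51.7 and 45.3 FPKM in H460 (average -0.31 ± 0.15, adjusted p = 0.14). Its groups were apart in H460 and overlapped in A549 and H2023. HSPA4, of the same Hsp110 group, averaged 0.00 ± 0.08 (adjusted p = 0.985). DNAJA1 and DNAJB1, the main cytosolic J-domain partners of Hsp70, averaged -0.13 ± 0.10 and -0.13 ± 0.14 (adjusted p = 0.37 and 0.527), while DNAJA2 passed at -0.36 ± 0.09 (adjusted p = 0.0107), with 48.0 and 42.6 against 31.3 and 36.9 FPKM in H2023.

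Read library by library, 12 of the 63 members had both NRF2 siRNA libraries below both controls in all 3 lines, where 7.20% of all genes did, and 6 had both above, where 8.18% did. The 12 were HSPA1B, DNAJA2, DNAJA3, DNAJB4, DNAJC13, DNAJC19, TCP1, CCT4, CCT5, CCT6A, HSPD1 and HSPE1, and the 6 were DNAJB2, DNAJB11, DNAJC3, DNAJC4, DNAJC12 and DNAJC22. The small heat shock proteins were in neither group. HSPB1 (Hsp27), which caps aggregates, was at 113 and 98.3 against 121 and 129 FPKM in A549, at 378 and 395 against 328 and 528 FPKM in H2023, and at 123 and 127 against 127 and 314 FPKM in H460. HSPB6, which passed the filter on low values in H460 alone, was at 38.6 and 78.0 against 26.4 and 114 FPKM there. In H460 the groups of HSPB6 overlapped and those of HSPB1 nearly met, with siRNA 30 the higher in both genes. HSPB8 (Hsp22), which works with the cochaperone BAG3, had the other sign in H460, at 32.8 and 36.6 against 20.7 and 15.1 FPKM with no overlap, and missed the threshold (-0.93 ± 0.25, adjusted p = 0.0553). In A549 HSPB8 was at 3.07 and 2.40 against 3.48 and 3.08 FPKM, and in H2023 at 8.36 and 7.55 against 8.35 and 6.98 FPKM.

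The third comparison asked whether the effect differed between lines, which was tested directly in the 12-library fit. It did for 5 of 63 members, HSP90AA1, HSP90AB1, CCT5, DNAJC4 and DNAJC6, against 2.51% of all genes tested. Set against A549, the effect in H460 differed by -1.32 ± 0.28 for HSP90AA1, -1.04 ± 0.21 for CCT5, 1.55 ± 0.30 for DNAJC4 and -1.93 ± 0.39 for DNAJC6, on the log2 scale. Set against H2023, made by the same protocol as H460, the differences were -1.35 ± 0.28, -0.98 ± 0.21, 1.27 ± 0.30 and -1.70 ± 0.39. HSP90AB1 differed by -0.86 ± 0.23 from A549 and by -1.14 ± 0.23 from H2023. The adjusted p-values of the 5 tests lay between 0.0417 and 0.0495. Each call was kept in 3 to 5 of 22 alternatives, and none remained without H460 control library 0 or control library 1.

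The fourth comparison set siRNA 28 against siRNA 30 over the 3 lines, with cell line as a covariate. No member of 70 passed in either direction, as for all genes (0% lower and 0% higher in limma), and 14 members (20%) were at an unadjusted p under 0.05, against 18.2% of all genes. DNAJB9 (ERdj4), an ER J-domain protein of the unfolded protein response, had the smallest p: it was at 16.2 and 12.8 FPKM in A549 controls, 21.0 FPKM with siRNA 28 and 8.72 FPKM with siRNA 30, at 37.5 and 45.3, 62.5 and 13.6 FPKM in H2023, and at 29.0 and 17.0, 24.6 and 6.50 FPKM in H460. The library of siRNA 30 was the lowest of the 4 in each line, and that of siRNA 28 was above both controls in A549 and H2023 (28 minus 30, 1.69 ± 0.21, adjusted p = 0.123). DNAJB4 was lower with siRNA 28 than with siRNA 30 in each line (-0.95 ± 0.19, adjusted p = 0.137), and DNAJC18 higher (0.81 ± 0.19, adjusted p = 0.16). In 1 fit of all 12 libraries DNAJB9, DNAJC18, DNAJC24 and CCT2 passed as higher with siRNA 28 and DNAJB4 as lower. The share of all genes that passed in this 12-library fit is not given, so these calls do not set members apart.

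**Figure D4:**
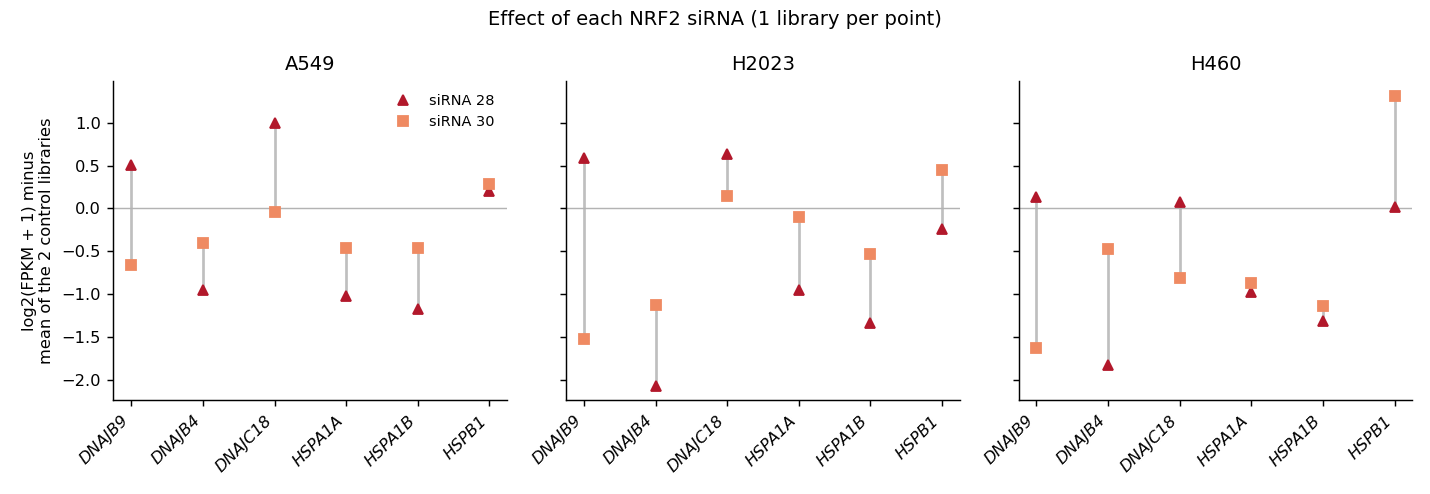
For 6 members, log2(FPKM + 1) in the library of siRNA 28 (triangles) and of siRNA 30 (squares) is plotted as the difference from the mean of the 2 controls (y axis) in each line, 1 library per point. DNAJB9 lay above 0 with siRNA 28 and below 0 with siRNA 30 in all 3 lines, whereas DNAJB4, HSPA1A and HSPA1B were below 0 with both.

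Partners of the chaperones were read from lists set beside the members, where 14.5% of all genes were lower and 15.2% higher on average. Of 24 co-chaperones of Hsp70 and HSP90, 10 were lower and 1 higher on average, at a median of -0.33. Within lines their median was -0.71 in H460, -0.09 in A549 and -0.03 in H2023. PTGES3 (p23), which stabilises HSP90 with its clients, fell on average (-0.74 ± 0.09, adjusted p = 0.000437) and was at 581 and 593 FPKM in H460 controls against 226 and 234 FPKM. FKBP4 (-0.68 ± 0.16), an HSP90-bound immunophilin, and BAG2 (-0.62 ± 0.11), a nucleotide exchange factor of Hsp70, were called too (adjusted p = 0.00983 and 0.00318). Of 8 prefoldin subunits and helpers of the CCT ring, 2 were lower, PFDN2 (-0.70 ± 0.08, adjusted p = 0.000382) and VBP1 (-0.31 ± 0.10, adjusted p = 0.0451), called in 22 and in 5 of 22 alternatives. Of 9 mitochondrial proteases and chaperones, 4 were lower, among them TRAP1, the mitochondrial HSP90 (-0.38 ± 0.10, adjusted p = 0.0222, and 0.005 without H460), CLPB (-0.44 ± 0.14) and CLPP (-0.36 ± 0.11), called in 13, 7 and 9 of 22 alternatives. Of 23 ER folding and unfolded protein response genes, 6 were higher and 2 lower, at a median of 0.27. SIL1, the nucleotide exchange factor of HSPA5, rose (0.81 ± 0.14, adjusted p = 0.00256), while the 2 lower genes were the stress transcription factors ATF4 (-0.82 ± 0.17, adjusted p = 0.00606) and ATF3 (-1.20 ± 0.38, adjusted p = 0.0363). ATF4 was called in 22 of 22 alternatives and ATF3 in 11 of 21. The H460 controls of ATF3 lay far apart, at 21.3 and 2.21 FPKM, against 1.09 and 0.725 FPKM with NRF2 siRNA. Within A549 and within H2023, 0 genes of these lists passed in limma, while 11 of the 23 ER folding genes in A549 (47.8%) and 6 in H2023 (26.1%) were at an unadjusted p under 0.05, against 13.3% and 16.9% of all genes. In H460 5 of the 23 (21.7%) were, against 33.7% of all genes.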

How the data were processed

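Total RNA of 12 libraries was sequenced with a strand-specific kit. The deposited values are FPKM per gene and library, estimated by the authors: per the labels, the submitters' processing notes name bcl2fastq 2.15.0, cutadapt 1.15, STAR 2.5.3a, SAMtools, Cuffnorm, HTSeq, DESeq2 and R 3.2.0 with hg19, whereas the study's methods name TopHat and Cufflinks, and the accounts were not reconciled. Such estimates share reads among near-identical transcripts, so HSPA1A, HSPA1B and members with processed pseudogenes are less certain. The authors' own tables of fold changes and p-values from DESeq2 were not used. The depth of each library is unknown, and counts per library were not used here, so no counting interval is given.

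Gene identifiers were matched to GENCODE v44 symbols lifted to GRCh37 (96.1% matched), and 12710 values under 1e-06 FPKM were set to 0. Each line was fitted alone with limma 3.58.1 (R 4.3.3, limma-trend, two-sided) on log2(FPKM + 1), over genes at 1 FPKM or more in at least 2 libraries of the fit. The average over lines and the difference between lines came from 1 fit of 12 libraries over genes passing in every line, and siRNA 28 against 30 from the 6 NRF2 siRNA libraries with line as a covariate. P-values were adjusted by Benjamini-Hochberg over all genes tested, at a threshold of 0.05, and rest on 2 libraries per group. The fits were tested on simulated data, where every fit that called genes called a larger share of unchanged genes than its threshold allows, so calls near 0.05 are less certain. Summaries used pandas 2.3.3 and numpy 2.4.6 in Python 3.11.15, and plots matplotlib 3.10.9.

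The members and lists were chosen with earlier results of these data known. Named were members called in a line (at most 12), the top 2 per family by control level, those called on average (at most 10 per direction), those called or nearest to it for the difference and the siRNAs, those apart from controls in all lines by 0.5 or more on the log2 scale, at most 3 per related list, and HSPA1A and HSPA1B. Other members were named after their values were seen, as were the ER and mitochondrial groups, the class of abundant genes and the fit of A549 and H2023 alone. Alternatives were another pseudocount, filters, scalings, limma without trend, a weight per line, a replicate block, fits of fewer or more lines and leaving out each library.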

Additional observations from a re-analysis of the deposited data

Results flagged for a closer look

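For 5 members the response to NRF2 siRNA was not the same in A549, H2023 and H460 by the limma test of the difference itself over the 12 libraries (Benjamini-Hochberg over all genes tested). CCT5 had an adjusted p of 0.0417, with log2 effects of -0.13, -0.19 and -1.17 in that order of lines. HSP90AA1 had an adjusted p of 0.0458, with effects of -0.05, -0.02 and -1.37. DNAJC4 had an adjusted p of 0.0466, with effects of 0.27, 0.55 and 1.82. DNAJC6 had an adjusted p of 0.0473, with effects of 0.17, -0.05 and -1.75. HSP90AB1 had an adjusted p of 0.0495, with effects of -0.21, 0.07 and -1.07. For each gene the effect in H460 was the farthest from 0, and both H460 knockdown libraries lay on the same side of both H460 controls.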

How the results depend on the processing

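With the replicate number as a block, H2023 had 2 members lower and 1 higher, H460 19 lower and 3 higher, and the difference between lines 0. Counts over all genes under the block are not given, so these counts do not set members apart from other genes. The average had 25 lower and 7 higher under the replicate block, with 31 of 32 calls shared. Same-numbered libraries correlated at 0.312 (H2023) and 0.163 (H460) but at -0.032 in A549, where a value above 0.1 was asked of every line, so the numbers were not taken as pairs. The 3 calls that the block added in H2023 were DNAJB4 and HSPA1B (lower) and DNAJC1 (higher).

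In H460, no filter left 0 lower and 0 higher members, as over all genes. Scaling without mitochondrial transcripts gave 6 lower and 3 higher, and median-ratio scaling 7 lower and 3 higher. Limma without trend gave 9 lower and 1 higher, while the fit of all 12 libraries gave 26 lower and 5 higher. Counts over all genes are not given for limma without trend or the 12-library fit, so those counts do not set members apart from other genes. On average, no filter gave 15 lower and 4 higher, and A549 and H2023 only gave 1 lower and 4 higher. In that fit of A549 and H2023 only, DNAJC6 turned to 0.062 and TRAP1 to 0.005. The share of lower calls among all genes moved from 49.1% to 33.2% in H460 and from 48.7% to 38.7% on average without mitochondrial transcripts, and to 37.1% and 36.6% with median-ratio scaling. For the difference between lines, pseudocount 0.1 gave 3 members, scaling without mitochondrial transcripts 1 and median-ratio scaling 1, and limma without trend, a weight per cell line, H2023 and H460 only, and A549 and H2023 only gave 0 each. For siRNA 28 against siRNA 30, the filter in every library gave 1 higher, and the fit of all 12 libraries 1 lower and 4 higher. Counts over all genes are not given for these fits either. The causes were not tested.

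Leaving out 1 library at a time gave 0 to 1 lower and 0 to 1 higher members in A549, 0 to 3 lower and 0 to 2 higher in H2023, 0 to 21 lower and 0 to 3 higher in H460, 15 to 30 lower and 5 to 9 higher on average, 0 to 12 for the difference between lines, and 0 to 1 higher for siRNA 28 against siRNA 30. Such a fit leaves an arm with 1 library, which is assumed to vary like the others. With 2 libraries per group and depth unknown, a member without a call was not shown to be unchanged.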

Other observations

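HSPA6, a strictly heat-inducible Hsp70 whose window holds a heat shock element, was at 0.526 and 6.71 FPKM in the A549 control libraries 0 and 1, and at 0.667 and 4.73 FPKM with siRNA 28 and 30. The higher libraries were thus those numbered 1 in both arms. HSPA6 passed the filter on low values in A549 alone.

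HSPA2, the testis-enriched Hsp70, was at 33.0 and 35.4 against 46.5 and 73.1 FPKM in A549 (0.75 ± 0.23, adjusted p = 0.278, limma), at 23.7 and 33.6 against 21.5 and 37.8 FPKM in H2023 (0.01 ± 0.32, adjusted p = 0.987), and at 2.55 and 4.99 against 3.18 and 3.95 FPKM in H460. The groups overlapped in H2023 and H460.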
